A study of Mus musculus with 13 samples.

Results

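The transcription factors described here take a neural stem cell through neurogenesis. They are 9 genes, Pax6, Sox2, Sox11, Neurog1, Neurog2, Insm1, Eomes, Neurod1 and Neurod4, out of 18193 genes with a named probe set on the array. Every probe set annotated to 1 of these symbols was taken, which gave 24 probe sets out of 34945 that carry a single symbol. The samples were mouse brains taken whole at embryonic day 18.5, each read on its own Affymetrix expression array. There were 6 wild-type embryos and 7 Meg3 knock-out embryos. Meg3 is an imprinted gene, active on the maternal chromosome, whose long RNA encodes no protein. The title of the series places its question in angiogenic genes, so the factors here lie outside that question. No source used here gives the strain, the sex or the part of Meg3 that was removed. The embryos came from 5 litters, read from the leading number of the embryo label. Litter 148 gave 1 knock-out embryo and no wild-type embryo, and litters 219, 238, 250 and 262 gave both genotypes.

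In the developing brain, Sox2 and Pax6 are made in radial glia, the stem cells that line the ventricles. Neurogenins are proneural basic helix-loop-helix (bHLH) proteins that commit such cells to the neuronal fate and switch on later factors. Eomes (Tbr2) marks the intermediate progenitors of the cortex, Insm1 promotes their formation, and Neurod1 and Neurod4 act as the cells become neurons. Sox11 is a SoxC factor of newborn neurons. bHLH proteins of this kind bind the E-box, a short DNA motif written CANNTG. Because these are bulk samples, fewer cells of a type and less RNA per cell cannot be told apart.

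The promoters of 8 of the 9 genes were found in the RefSeq table of build GRCm38.p6, and those of 5 are printed because these genes are in the pairs of members whose correlation across embryos passed, as described below. Insm1, also in such a pair, has no entry in the table. Each line gives the 250 bases before a start that the table lists (for Neurog2, Eomes and the downstream start of Pax6 a start inside the annotated gene), 5′ to 3′ on the strand of the gene. Capitals mark each CANNTG motif, which reads the same way on both strands.
Neurog2: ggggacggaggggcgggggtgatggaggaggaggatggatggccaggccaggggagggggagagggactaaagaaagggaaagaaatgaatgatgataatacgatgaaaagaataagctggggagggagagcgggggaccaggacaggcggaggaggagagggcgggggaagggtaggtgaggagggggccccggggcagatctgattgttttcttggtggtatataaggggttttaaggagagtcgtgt
Eomes: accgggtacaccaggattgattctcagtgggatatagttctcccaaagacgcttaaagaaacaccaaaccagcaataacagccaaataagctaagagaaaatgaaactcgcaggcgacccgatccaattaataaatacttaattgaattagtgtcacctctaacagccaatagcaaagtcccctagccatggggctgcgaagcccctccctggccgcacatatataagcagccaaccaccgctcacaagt
Neurod1: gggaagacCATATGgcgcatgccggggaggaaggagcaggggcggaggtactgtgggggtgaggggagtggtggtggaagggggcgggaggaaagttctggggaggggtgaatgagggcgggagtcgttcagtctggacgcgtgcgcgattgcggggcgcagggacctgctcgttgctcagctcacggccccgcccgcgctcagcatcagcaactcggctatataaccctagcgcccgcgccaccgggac
Sox11: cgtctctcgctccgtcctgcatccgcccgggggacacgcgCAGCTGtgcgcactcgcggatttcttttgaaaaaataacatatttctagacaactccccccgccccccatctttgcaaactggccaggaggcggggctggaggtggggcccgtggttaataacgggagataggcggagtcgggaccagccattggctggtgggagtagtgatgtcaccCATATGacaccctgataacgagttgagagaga
Pax6, upstream start: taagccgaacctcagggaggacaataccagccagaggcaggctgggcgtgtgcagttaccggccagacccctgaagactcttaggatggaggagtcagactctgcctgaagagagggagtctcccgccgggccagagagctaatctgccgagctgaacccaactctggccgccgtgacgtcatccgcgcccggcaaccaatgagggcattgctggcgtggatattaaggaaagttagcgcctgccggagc
Pax6, downstream start: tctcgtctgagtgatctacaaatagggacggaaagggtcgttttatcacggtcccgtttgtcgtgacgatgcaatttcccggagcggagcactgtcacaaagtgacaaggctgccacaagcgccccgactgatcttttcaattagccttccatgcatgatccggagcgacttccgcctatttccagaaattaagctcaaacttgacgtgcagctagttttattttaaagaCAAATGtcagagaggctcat
The Neurog2 window lies on the plus strand at chr3:127632886-127633135 and the Eomes window on the plus strand at chr9:118477939-118478188. The Neurod1 window lies on the minus strand at chr2:79456637-79456886 and the Sox11 window on the minus strand at chr12:27342719-27342968. The Pax6 windows lie on the plus strand at chr2:105668646-105668895 and chr2:105682213-105682462. The Sox11 window held 2 such motifs, the Neurod1 window and the downstream Pax6 window 1 each, and the others printed held 0. Over all 10 windows of the members 3 held at least 1, where 66.2% of 32851 promoter windows of this length did. The form CAGATG, searched on both strands, was in 14.4% of all windows and in 0 of these 10. A match describes letters only, and 0 matches in this window says nothing of the factor.

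Before the members, the arrays were checked. Meg3 was lower past the threshold in knock-out embryos on each of its 11 probe sets, with log2 changes from -6.80 to -2.51. The ratio of 3' to 5' signal of the Actb control, a measure of RNA quality, was 2.92 in wild-type 2 (litter 219) and 1.81 in knock-out 1 (litter 148), against 1.32 to 1.495 in the other 11 arrays. Of 5 named pituitary genes 1, Pomc, was above the low-signal filter. The hormone genes Gh, Tshb, Prl and Cga were below it, with highest signals of 84.2, 68.2, 54.4 and 19.9 in any array. Of 4 retina and olfactory genes, Crx and Rax were below the filter, and the olfactory genes Omp and Gng13 were above it, at 58.3 ± 14.4 (SD, n = 6) and 114 ± 16.9 (SD, n = 6) in wild-type brains. Markers of choroid plexus and meninges were above it too, with Ttr at 27043 ± 5144 and Col1a2 at 3478 ± 1310 (SD, n = 6) in wild-type brains.

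No factor of this set changed past the test in brains without Meg3. A probe set was tested if its mean over all arrays lay above the 40th percentile of all probe sets, a signal of 56.9, and 16 of the 24 passed that filter, covering 7 of the 9 genes. Of these, 0 passed (limma, adjusted over 27022 probe sets, threshold 0.05), where 0.0629% of all probe sets tested passed, all of them lower. At an unadjusted p under 0.05 there were also 0 of 16, against 3.96% of all probe sets tested. The mean was lower in knock-out brains for 10 and higher for 6, where 27.5% of all probe sets tested were lower and 72.5% higher by their means, and the median log2 change was -0.09, beside 0.08 over all probe sets tested. For each of the 16, the knock-out and wild-type ranges overlapped, where 0.133% of all probe sets tested had groups that did not overlap. The adjusted limma p was 1.00 for each of the 16. Centring each array on its median moved the median log2 change over all probe sets tested to -0.12 and that of the members to -0.29, with 2 of the 16 then at an unadjusted p under 0.05, against 4.42% of all probe sets tested, and 0 past the threshold.

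**Figure D1:**
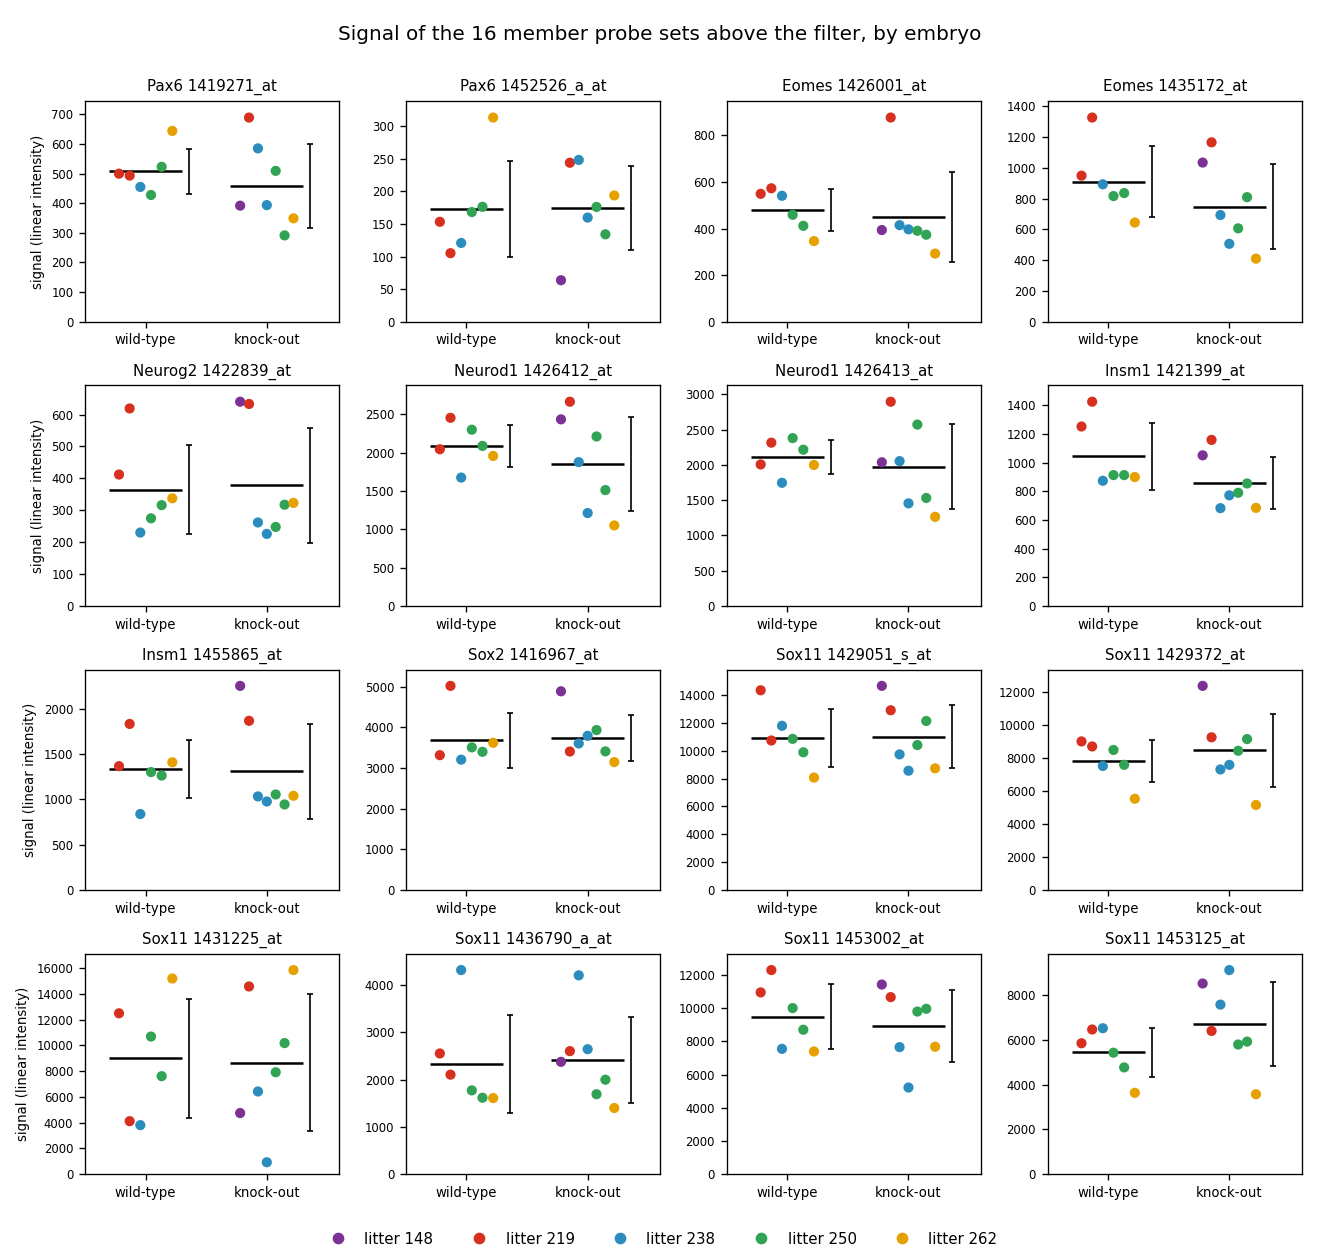
Signal on a linear scale in each of the 13 embryos for the 16 member probe sets above the filter; points are embryos coloured by litter, the line is the group mean and the bar beside it 1 SD (6 wild-type, 7 knock-out). In each panel the groups overlap, and for Neurog2 the points of litters 148 and 219 lie above those of the other litters, 412 and more against 337 and less.

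Among the stem cell factors, Sox2 was the steadiest. Its only probe set, 1416967_at, read 3206, 3453 and 5020 (lowest, median and highest) in wild-type brains and 3147, 3604 and 4887 in knock-out brains. The means were 3678 ± 673 (SD, n = 6) and 3740 ± 570 (SD, n = 7), a log2 change of 0.03 (95% interval -0.25 to 0.31). The 2 highest arrays, 1 of each genotype, were wild-type 2 and knock-out 1, which are also the 2 arrays with the highest 3' to 5' ratio, and the part of RNA quality in this was not tested.

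Pax6, a paired-box factor of dorsal radial glia, had 5 probe sets, of which 2 passed the filter. On 1419271_at its signal was 428, 496 and 644 in wild-type and 291, 393 and 689 in knock-out brains. Here 4 of 7 knock-out arrays lay below the lowest wild-type array, and another knock-out array was the highest of all. The means were 507 ± 75.2 (SD, n = 6) and 458 ± 142 (SD, n = 7), and the log2 change was -0.18 (95% interval -0.57 to 0.21). The weaker 1452526_a_at had a log2 change of -0.00 (95% interval -0.60 to 0.60). Its level was 63.7 in knock-out 1, the lowest of the 13 arrays, and 314 in wild-type 6, the highest. Within litters 219, 238, 250 and 262 the log2 difference of 1419271_at was 0.46, 0.08, -0.28 and -0.85, so the sign was not the same in every litter. The remaining 3 Pax6 probe sets had signals of 4.13 to 70.0 and were not tested with limma.

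Neurog2, the main neurogenin of the dorsal forebrain, differed little between the genotypes. Its probe set 1422839_at read 230, 327 and 619 in wild-type and 226, 317 and 640 in knock-out brains. The means were 365 ± 139 (SD, n = 6) and 378 ± 180 (SD, n = 7), with a log2 change of 0.01 (95% interval -0.59 to 0.60). Neurog1, its close relative, was below the filter on both probe sets, with signals from 1.73 to 60.5 over the 13 arrays. These values are reported with no limma test, and a signal below the filter does not show that the gene is silent in some part of the brain.

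Insm1, a zinc-finger factor of intermediate progenitors and endocrine cells, had the smallest p of the set on 1421399_at. The signal there was 873, 913 and 1425 in wild-type and 682, 790 and 1159 in knock-out brains. The lowest wild-type array lay above 5 of the 7 knock-out arrays, and the other 2 knock-out arrays, from litters 148 and 219, lay above 4 of the 6 wild-type arrays. The means were 1046 ± 234 (SD, n = 6) and 856 ± 183 (SD, n = 7), so the log2 change was -0.28 and its 95% interval -0.63 to 0.06. Comparing littermates, the knock-out mean was lower 4 times of 4, with log2 differences of -0.20 (litter 219), -0.26 (litter 238), -0.15 (litter 250) and -0.39 (litter 262). Over all splits of the arrays the exact permutation p was 0.107. With genotypes permuted only within litters, the exact permutation p was 0.00926, the smallest that these 108 splits allow. This was 1 of 24 probe sets given an exact p within litters, those below the filter included, with no correction over them. Splits were ranked by the absolute difference of the pooled means. Litters are unbalanced, with litter 148 knock-out only, so within litters these differences need not centre on no difference. The within-litter p therefore does not weigh the 2 directions alike. With litter as a block the log2 change was -0.23 ± 0.092 SE (limma adjusted p = 0.995).

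The other Insm1 probe set did not follow. On 1455865_at the signal was 838, 1333 and 1832 in wild-type and 944, 1039 and 2251 in knock-out brains. The log2 change was -0.07 (95% interval -0.57 to 0.42), and the exact permutation p within litters was 0.537. Within litters 219 and 238 the knock-out mean was higher, by 0.24 and 0.26, and within litters 250 and 262 it was lower, by -0.36 and -0.43.

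Eomes, the T-box factor of intermediate progenitors, had lower means in knock-out brains on both probe sets, and neither passed. On 1435172_at the signal was 645, 865 and 1328 in wild-type and 410, 694 and 1166 in knock-out brains. The 3 knock-out arrays that lay below the lowest wild-type array came from litters 238, 250 and 262. The means were 911 ± 228 (SD, n = 6) and 747 ± 276 (SD, n = 7), so the log2 change was -0.33 and its 95% interval -0.83 to 0.17. Littermates differed on the log2 scale by 0.05 (litter 219), -0.58 (litter 238), -0.23 (litter 250) and -0.63 (litter 262). The exact permutation p was 0.215 over all splits and 0.0370 within litters, the latter with the limits given for Insm1. On 1426001_at the signal was 346, 499.9 and 573 in wild-type and 292, 394 and 877 in knock-out brains. The single knock-out 2 array reached 877 while the other 6 knock-out arrays stood at 414 or less. The log2 change there was -0.15 (95% interval -0.60 to 0.30), and it was -0.32 without knock-out 2. On this probe set the exact permutation p within litters was 0.398.

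Neurod1, which acts in newly born neurons of cortex, hippocampus and cerebellum, spread more widely among knock-out than among wild-type embryos. On 1426413_at the signal was 1746, 2111 and 2380 in wild-type and 1263, 2037 and 2896 in knock-out brains. The SD was 237 (n = 6) among wild-type and 604 (n = 7) among knock-out arrays, and this difference in spread was not tested. Pax6 1419271_at (75.2 and 142) and Eomes 1426001_at (89.6 and 193) also had the larger SD among knock-out arrays. Insm1 1421399_at (234 and 183) and Sox2 (673 and 570) had the smaller. The share over all probe sets tested was not computed. The means of Neurod1 1426413_at were 2110 and 1972, with a log2 change of -0.15 (95% interval -0.54 to 0.25). On 1426412_at the log2 change was -0.23 (95% interval -0.68 to 0.21). Within litters 219, 238, 250 and 262 this second probe set differed by 0.25, -0.15, -0.26 and -0.89. Neurod4, a related bHLH factor, was below the filter on its 3 probe sets, with a highest signal of 71.8. Its brightest probe set, 1436694_s_at, read 49.0 ± 13.5 (SD, n = 6) in wild-type and 37.5 ± 12.9 (SD, n = 7) in knock-out brains, with no limma test.

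**Figure D2:**
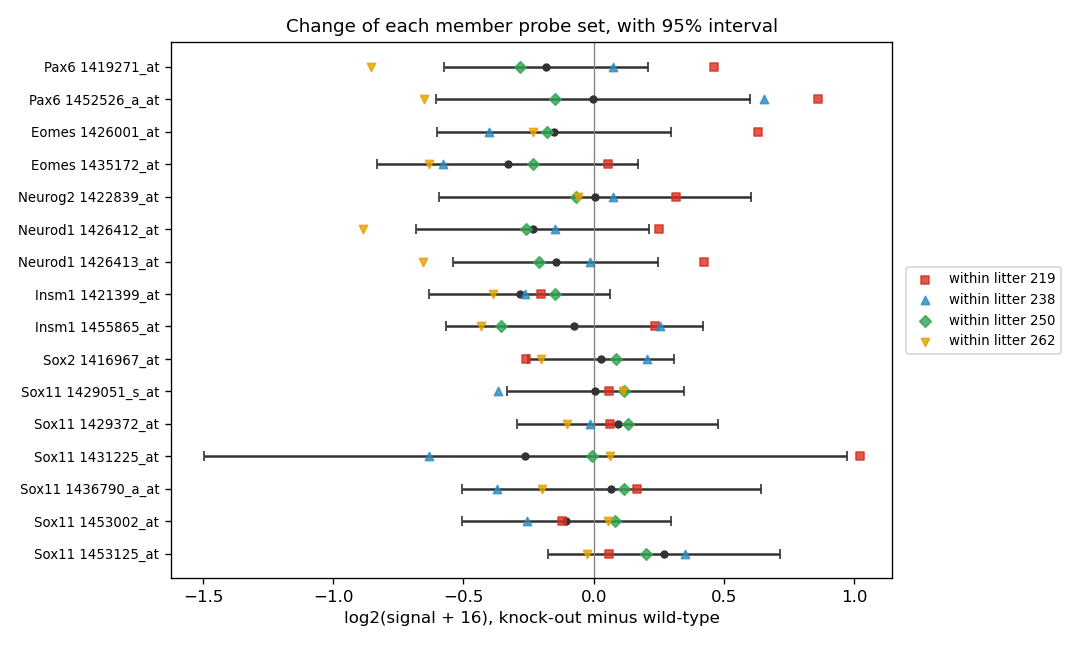
Knock-out minus wild-type difference of log2(signal + 16) for each of the 16 tested probe sets, as black points with 95% intervals, and the difference within each of 4 litters as coloured marks. Each interval holds 0, and Insm1 1421399_at is the row whose 4 litter marks all lie below 0.

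Sox11 had 6 probe sets above the filter, and they did not vary alike. On 1429051_s_at, the one with the highest mean of the 6, the signal was 8076, 10798 and 14343 in wild-type and 8568, 10410 and 14659 in knock-out brains. The means were 10950 ± 2081 (SD, n = 6) and 11024 ± 2284 (SD, n = 7), a log2 change of 0.01 (95% interval -0.33 to 0.35). The other 5 had log2 changes of 0.09, -0.26, 0.07, -0.11 and 0.27, none of which passed. The highest of these, on 1453125_at, rested on 5443 ± 1103 (SD, n = 6) and 6698 ± 1880 (SD, n = 7). Its exact permutation p was 0.251 over all splits and 0.0370 within litters, the latter with the limits given for Insm1. For the other Sox11 probe sets the exact permutation p within litters ran from 0.222 to 0.98. The signal of 1453125_at was higher in litters 219, 238 and 250, by 0.06, 0.35 and 0.20, and lower in litter 262, by -0.03.

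Of the Sox11 probe sets, 1431225_at ranged most widely over the embryos. Its signal ran from 3811 to 15195 among wild-type and from 931 to 15850 among knock-out brains, a 17-fold range, where the other 5 spanned 1.82-fold to 3.08-fold. Among the 7243 probe sets with a mean signal above 1000, 0.373% had a wider range. The lowest value, 931, was that of knock-out 4 of litter 238, and the 2 arrays of litter 262 held the highest values, 15195 and 15850. These same 2 arrays had the lowest signals of 1453125_at, 3635 and 3572, while knock-out 4 had its highest, 9115. Across the 13 arrays the 2 probe sets ran against each other (r = -0.73, rho = -0.79), as a description. On 1436790_a_at the 2 highest signals, 4313 and 4201, were both from litter 238. Across arrays 1429051_s_at ran with 1429372_at (r = 0.84) and with 1453002_at (r = 0.72), and its r with 1431225_at was 0.13. No source used here says which part of the Sox11 transcript each probe set reads.

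**Figure D3:**
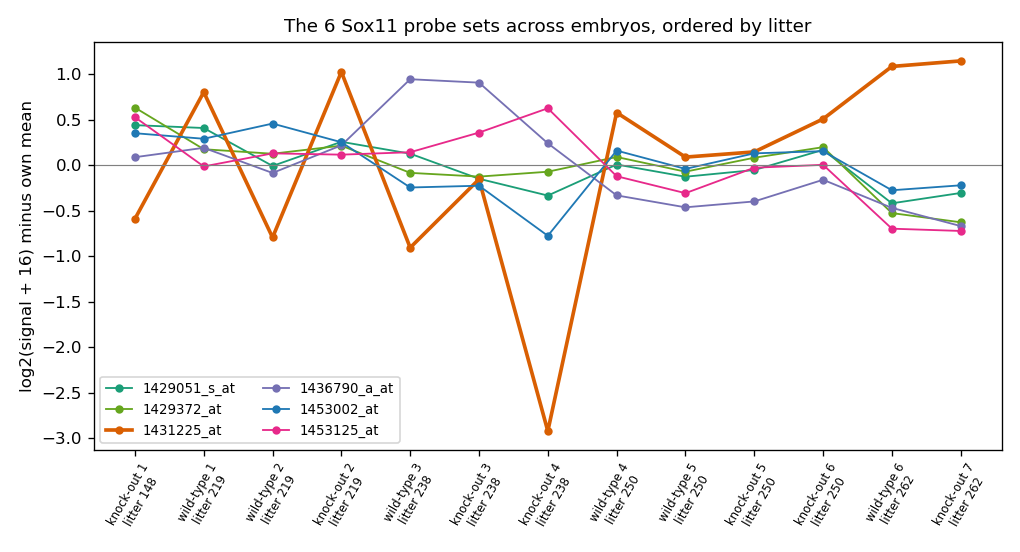
Log2(signal + 16) of the 6 Sox11 probe sets, each minus its own mean over the 13 arrays, with embryos ordered by litter and lines joining the values of a probe set only to guide the eye. Probe set 1431225_at (thick line) falls to its lowest point in knock-out 4, where 1453125_at is at its highest.

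Differences between litters did not pass the test in the main setting, and they are described here by their values. The mean Neurog2 signal was 640 in the single embryo of litter 148 and 555 in litter 219, while litters 238, 250 and 262 averaged 239, 289 and 330. All 4 arrays of litters 148 and 219 read 412 or more, and all 9 arrays of the other litters read 337 or less. The same split, seen after the values were known, held for Insm1 1421399_at (1051 or more against 913 or less), Eomes 1435172_at (949.6 or more against 893 or less) and Sox11 1453002_at (10663 or more against 10004 or less). The share of all probe sets tested that split this way was not computed, so the split is not read as a trait of the members. In a test of litter beside genotype, added after seeing the data, 11 of the 16 probe sets had an unadjusted p under 0.05, against 19.2% of all probe sets tested. After adjustment 0 of 16 passed (limma moderated F test, lowest adjusted p = 0.0766 for Neurog2, Sox11 1429372_at and Sox11 1453125_at), where 0.0407% of all probe sets tested passed. The count depended on the scaling of the arrays. It was 5 of 16 after median centring, where 2.39% of all probe sets passed, and 7 of 16 after quantile normalization, where 3.62% passed. Without litter 219 it was again 5 of 16, where 15.4% of all probe sets passed. Probe sets of 1 gene, and the genes themselves, share these arrays and are not independent. Litters 148 and 219 also hold knock-out 1 and wild-type 2, the arrays with high 3' to 5' ratios. With that ratio as a covariate in the main setting, 0 of 16 passed, as without it, where 0.0777% of all probe sets did. The lowest adjusted p was then 0.0712 (limma moderated F test), and the part of RNA quality in the litter differences was not tested.

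Some pairs of members varied together across embryos, and most did not pass. Over 21 pairs of the 7 genes above the filter, each by its probe set of highest mean signal (1455865_at for Insm1), r was above 0 in 20 and ran from -0.094 for Pax6 and Sox11 to 0.91. The same share over other pairs of probe sets was not computed. Neurog2 and Insm1 gave the highest (r = 0.91, permutation adjusted p = 0.00084, and rho = 0.84, permutation adjusted p = 0.0128, n = 13). This relation held without the 2 arrays farthest from the median of Neurog2 (r = 0.84), without wild-type 2 and knock-out 1 (r = 0.84) and without litter 219 (r = 0.88). Because Neurog2 split the arrays by litter into 4 high and 9 low ones, the pooled r rests in part on that gap. Within the 9 arrays of litters 238, 250 and 262 r was 0.58, and with the mean of each litter removed it was 0.53. Permutations here ignore litter and any scaling that arrays share.

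Of the 21 pairs, 4 passed by Pearson's r and 1 by Spearman's rho after adjustment over the pairs. Sox11 and Eomes had r = 0.71 (permutation adjusted p = 0.0451) and rho = 0.74 (permutation adjusted p = 0.0538), with r = 0.72 without the 2 farthest arrays and 0.15 with litter means removed. Neurog2 and Eomes had r = 0.69 (permutation adjusted p = 0.0451) and rho = 0.61 (permutation adjusted p = 0.179), with r = 0.59 without the 2 farthest arrays and 0.41 without litter 219. Within the 9 arrays of litters 238, 250 and 262 the r of Neurog2 and Eomes was -0.053, and with litter means removed over all 13 arrays it was 0.53, so these ways of taking litter into account gave different answers. In the same 9 arrays Sox11 and Eomes had r = 0.72 and Pax6 and Neurod1 r = 0.66. Pax6 and Neurod1 had r = 0.71 (permutation adjusted p = 0.0451) and rho = 0.60 (permutation adjusted p = 0.179), with r = 0.53 without the 2 farthest arrays and 0.94 with litter means removed. With litter means removed, then, Pax6 and Neurod1 ran together most closely of these 4 pairs, and Sox11 and Eomes least. Sox2 and Insm1 had r = 0.63 (permutation adjusted p = 0.0623) and rho = 0.38 (permutation adjusted p = 0.452), and that r was -0.0012 without wild-type 2 and knock-out 1, so it rests on those arrays. Centring each array on its median raised the number of passing pairs to 7 by Pearson's r and 5 by Spearman's rho.

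**Figure D4:**
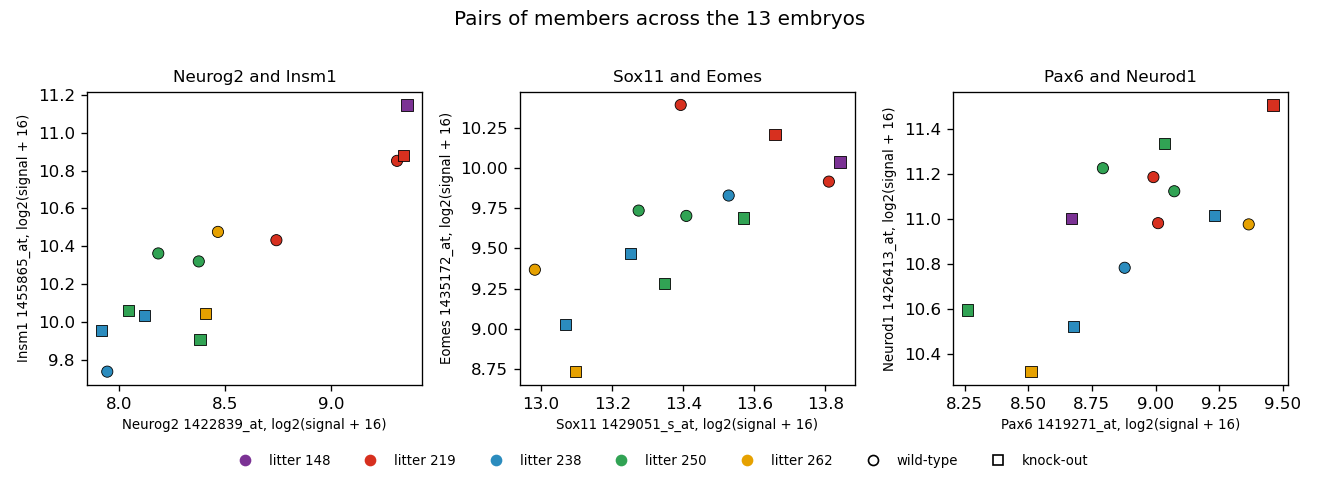
Log2(signal + 16) of 3 pairs of members in the 13 embryos, coloured by litter, with circles for wild-type and squares for knock-out. The embryos of litters 148 and 219 lie at the upper right for Neurog2 and Insm1 (r = 0.91), with genotypes mixed along that cloud. For Pax6 and Neurod1, knock-out 4, 6 and 7 lie below every wild-type embryo on both axes, and knock-out 2 lies above every one.

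Genes outside the set that were most like each member are given by their r over the same 13 arrays, among 23435 probe sets compared. Neurod1 was most like Racgap1, a regulator of cytokinesis (r = 0.90), and Cenpp, a centromere protein (r = 0.89). Eomes was most like Uxt (r = 0.93) and the mitochondrial DNA-binding gene Ssbp1 (r = 0.93). Neurog2 was most like A930024E05Rik and the melanin enzyme gene Dct (both r = 0.91), and Insm1 like Spata5l1 (r = 0.90) and Cdc73 (r = 0.89). By 1429051_s_at, Sox11 was most like the endosomal sorting gene Vps37c (r = 0.97) and the histone gene H2aj (r = 0.94). Its other probe sets had other neighbours, Cstf1 (r = 0.92) for 1431225_at and Ndn (r = 0.87) for 1436790_a_at, looked up after their spread was seen. Sox2 was most like the actin regulator gene Abi1 (r = 0.96) and Yipf4 (r = 0.95), and Pax6 like Fundc2 (r = 0.85) and Snapin (r = 0.84). These are the highest of very many values and carry no test.

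Genes that work with these factors did not pass the test either. Of 62 tested genes in 5 lists, 0 passed in either direction, 34 means were higher and 28 lower in knock-out brains, beside the 72.5% higher over all probe sets tested, and the median log2 change was 0.01. At an unadjusted p under 0.05 there were 2 of 62, beside 3.96% of all probe sets tested. Both belong to the list of bHLH partners and inhibitors. Hes1, a repressor of proneural genes, read 194 ± 28.9 (SD, n = 6) and 259 ± 18.6 (SD, n = 7), a log2 change of 0.40 ± 0.11 SE. Its unadjusted limma p was 0.0025. Its ranges, 145 to 222 and 227 to 284, did not overlap, as in 0.133% of all probe sets tested, and those of Id4 did. Id4, which blocks bHLH dimers, read 5907 ± 524 (SD, n = 6) and 7103 ± 949 (SD, n = 7), a log2 change of 0.26 ± 0.12 SE. The limma adjusted p was 1.00 for both. In that list 8 of 11 tested genes had a higher mean, close to the share over all probe sets tested, and the median log2 change of 0.06 lay below the 0.08 over all of them. These shares and medians are those of the signals as deposited. The median over all probe sets tested was -0.0091 after quantile normalization and -0.12 after median centring.

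Of 7 other neurogenic bHLH genes tested, 5 had a lower mean and the median log2 change was -0.08. Atoh1, which drives cerebellar granule progenitors, had a log2 change of -0.50 ± 0.43 SE, and Nhlh1, of young postmitotic neurons, one of -0.27 ± 0.24 SE. Of 16 proneural targets and intermediate progenitor genes, 7 means lay above and 9 below those of wild-type brains, with a median log2 change of -0.01. Btg2, an antiproliferative gene of progenitors about to make neurons, stood at 0.22 ± 0.12 SE and Unc5d, a netrin receptor of the subventricular zone, at 0.25 ± 0.21 SE. Of 11 Sox factors and Pou partners, 8 had a higher mean at a median of 0.03, with Sox9 at -0.14 ± 0.17 SE and Sox5 at 0.13 ± 0.17 SE. Of 17 radial glia and ventricular zone genes, 9 means were higher and 8 lower, with a median log2 change of 0.0039, with Hopx at -0.15 ± 0.13 SE and the RNA-binding gene Msi1 at -0.19 ± 0.19 SE.

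Markers of dividing and neighbouring cells are given beside these values. Of 10 tested proliferation genes 0 passed, 9 had a lower mean in knock-out brains and the median log2 change was -0.14. The summed signal of the list was 12981 to 15264 in wild-type and 10013 to 17823 in knock-out brains. Mki67, a marker of dividing cells, had a log2 change of -0.53 ± 0.45 SE, Cdk1 one of -0.24 ± 0.14 SE and Mcm2, the single tested gene of the list with a higher mean, one of 0.22 ± 0.16 SE. Of 5 cerebellar granule lineage genes 3 had a lower mean, at a median of -0.03, with sums of 8335 to 12187 and 6982 to 12160. Of 6 tested choroid plexus genes 5 had a lower mean, at a median of -0.45, with sums of 22897 to 38087 and 9033 to 31668. Of 11 tested neuron markers 7 had a higher mean, at a median of 0.05. The medians were 0.03 for astrocyte, 0.12 for endothelial, 0.15 for microglial, -0.03 for oligodendrocyte lineage and -0.07 for meningeal markers. Over all probe sets tested the median was 0.08 in the signals as deposited. Tyms of the proliferation list and Kl of the choroid plexus list lay below the filter. The part of these cell types in the values of the members was not tested.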

How the data were processed

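Signals of 13 Affymetrix arrays, 1 whole brain each, were used as deposited by the authors, as linear intensity values. Total RNA was labelled with the one-cycle protocol, per the labels' protocols. No source used here gives the software, the summary method or the scaling. The trimmed means of the deposited intensity values ran from 454 to 540 over the arrays. The array medians on the log2 scale were not level between genotypes. They ran from 6.63 to 6.99 in wild-type and from 6.82 to 7.13 in knock-out arrays. Shares of higher and lower means are given for the deposited scaling only. Of 45037 non-control probe sets, 34945 had 1 gene symbol, 932 several and 9160 none in the platform annotation. Intensities carry no read depth, so the number of arrays limits the precision.

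Values were taken as log2(signal + 16), so fold changes of weak probe sets are understated. Probe sets with a mean above the 40th percentile were fitted with limma 3.58.1 in R 4.3.3 (lmFit, eBayes, genotype only, two-sided), with Benjamini-Hochberg adjustment over 27022 probe sets at 0.05. The fit, the exact tests over all splits and the correlations were tested on simulated data. For the exact tests and the correlations these were independent values without litters. They therefore do not show how those tests behave where arrays share a litter or a scaling. Single probe sets were also tested with exact permutation tests in Python 3.11.15, by the absolute difference of the pooled means. These were two-sided over all splits, and within litters they do not weigh the 2 directions alike. Correlations used 100000 resamples and Benjamini-Hochberg adjustment over 21 pairs. Members and gene lists were chosen with earlier results of these data known. All member probe sets were named, from each list of partner genes the 2 with the smallest p, and for likeness the 2 genes with the highest r. Alternatives were the offset, filter, scaling, litter, RNA quality, array weights and leaving out arrays or litters. The sample titles' replicate numbers did not pair arrays (correlation of deviations -0.43 to 0.20, over 0.1 in 1 of 6 pairs). Litter, read from the embryo labels, is shared by design. Over 9 littermate pairs across genotype the correlation of deviations had a median of 0.05 and ran from -0.12 to 0.75, over 0.1 in 3 pairs.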

Additional observations from a re-analysis of the deposited data

Results flagged for a closer look

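In 6 of 48 sets of signals, a probe set in 1 genotype, a single embryo stood apart from the others of its genotype by Dixon's test. For normally distributed values chance alone marks about 1 in 20 sets. The test was run on linear signals of sets that share the same arrays, so that rate need not hold here. Of 4 that were above the filter, Eomes 1426001_at read 876.6 in knock-out 2, where the next knock-out array read 414.4. Sox2 1416967_at read 5019.7 in wild-type 2, the array with the highest 3' to 5' ratio, and the next read 3621.1. Sox11 1436790_a_at read 4312.8 in wild-type 3 of litter 238, and the next read 2551.3. Pax6 1452526_a_at read 313.5 in wild-type 6, and the next read 176.4. The other 2 were below the filter. Neurog1 1438551_at read 20.8 in knock-out 6 with the next at 8.3, and Neurod4 1418054_at read 39.7 in knock-out 2 with the next at 18.9.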

How the results depend on the processing

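Under 33 alternative settings 0 member probe sets and 0 partner genes passed, and the lowest adjusted limma p of a member was 0.770, after median centring. Over the whole table, higher calls numbered 3 with no filter and 2 with array weights, and lower calls 11 with a filter at the 60th percentile, 3 with 1 probe set per gene and 9 with the replicate number as a block. Leaving out 1 array gave 0 to 1 higher and 15 to 17 lower calls. Of 16 member log2 changes, all uncalled, 7 kept their sign under every setting, and the cause of the turns below was not tested.

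Pax6 1452526_a_at turned to 0.0060 with an offset of 64, 0.19 with litter as a block, 0.023 with litter as a random block, 0.12 with array weights, 0.065, 0.14 and 0.19 without litters 250, 262 and 148, and 0.080 without wild-type 2 and knock-out 1 (chosen after seeing the data). Neurog2 turned to -0.092 with quantile normalization, -0.19 with median centring, -0.048 with the array factor removed and -0.14 without litter 148. Sox2 turned to -0.17 with median centring, -0.028 with the array factor removed, -0.019 with the litter block, and -0.0066, -0.0020 and -0.038 without litters 238, 250 and 148. Insm1 1455865_at turned to 0.046 once the Actb 3' to 5' ratio entered as a covariate and 0.037 without litter 250.

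Sox11 1429051_s_at turned to -0.0032 with quantile normalization, -0.19 with median centring, -0.051 with the array factor removed, -0.012 with the litter block, -0.045, -0.027 and -0.067 without litters 250, 262 and 148, and -0.069 without wild-type 2 and knock-out 1. Sox11 1429372_at turned to -0.11 with median centring and -0.0066 without litter 148, and 1436790_a_at to -0.13 with median centring and -0.042 with the litter block. Sox11 1431225_at turned to 0.10 with the litter block and 0.095 without litter 238, and 1453002_at to 0.0015 with array weights and 0.0024 and 0.015 without litters 219 and 238.

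Leaving out 1 array gave -0.11 to 0.19 for Pax6 1452526_a_at, -0.14 to 0.17 for Neurog2, -0.22 to 0.023 for Insm1 1455865_at and -0.038 to 0.12 for Sox2. For Sox11 it gave -0.078 to 0.087 (1429051_s_at), -0.0066 to 0.20 (1429372_at), -0.47 to 0.20 (1431225_at), -0.078 to 0.26 (1436790_a_at) and -0.17 to 0.016 (1453002_at). Of those that kept their sign, 6 moved by over 1.5 times: Neurod1 1426413_at ranged from -0.25 without knock-out 2 to -0.050 without knock-out 7, 1426412_at from -0.33 to -0.11 and Eomes 1435172_at from -0.45 to -0.20 without the same arrays, and Eomes 1426001_at from -0.32 to -0.068. Pax6 1419271_at ranged from -0.29 without knock-out 2 to -0.088 without knock-out 6, and Sox11 1453125_at from 0.16 without wild-type 6 to 0.41 without knock-out 7. Insm1 1421399_at ranged from -0.36 to -0.19. Median centring gave lower values for these 7, beside a median of -0.12 over all probe sets tested. They were -0.48 for Insm1 1421399_at, -0.53 and -0.35 for Eomes 1435172_at and 1426001_at, and -0.38 for Pax6 1419271_at. Neurod1 1426412_at and 1426413_at stood at -0.43 and -0.34, and Sox11 1453125_at at 0.073.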
